A study of Homo sapiens with 6 samples.

Results

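Eph receptors and ephrins were followed in the lung adenocarcinoma line A549 after siRNA against the ribosomal protein gene RPS19. The set holds 10 genes, chosen by symbol among the rows on reference chromosomes in the authors' table. They are the receptor genes EPHA1, EPHA2, EPHA4, EPHB2, EPHB3 and EPHB4 and the ephrin genes EFNA1, EFNA5, EFNB1 and EFNB2, out of 22 family genes in the table and 63152 genes counted. The siRPS19 group received a siGENOME pool of siRNAs against RPS19, and the siOTP group a non-targeting ON-TARGETplus control, so reagent line and target differ together. Both were given at 10 nM by reverse transfection and harvested after 72 hours, with 3 biological replicates in each group. The knockdown lowers RPS19 mRNA and does not delete the gene.

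Eph receptors are the largest family of receptor tyrosine kinases, and their ligands, the ephrins, are anchored in the membrane of neighbouring cells. A-class ephrins hold a lipid anchor and mostly bind EphA receptors, whereas B-class ephrins span the membrane and mostly bind EphB receptors. Contact sends a forward signal into the receptor-bearing cell and a reverse signal into the ephrin-bearing cell, and both act mainly on the cytoskeleton. In epithelia the system is known for cell sorting, boundary formation and contact-dependent repulsion.

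Counts on genes totalled 20814110 to 23889372 per library. RPS19 itself stood at 1472 ± 96.6 CPM in siOTP and 41.7 ± 4.91 CPM in siRPS19 (SD, n = 3 each), 35.3-fold lower, as the labels say. CPM stands for counts scaled to a common library size, here with trimmed mean of M-values (TMM) factors. Reads outside genes made up 3.39% to 3.85% of entries in siOTP and 5.13% to 6.36% in siRPS19. All 5 epithelial markers were detected, with a summed level of 1760 to 2233 CPM in siOTP and 1124 to 1266 CPM in siRPS19, as the keratin genes KRT8 and KRT18 fell 1.94-fold and 2.63-fold. KRT19 and CDH1 rose 6.85-fold and 1.63-fold, and EPCAM fell 1.48-fold. Endothelial markers, 4 of 5 of which were matched by symbol, summed to 0.0480 to 0.152 and 0.248 to 0.390 CPM, near 0. Leukocyte markers summed to 1.53 to 2.48 and 2.15 to 2.94 CPM, nearly all from CD14, with CD3E at 0. Fibroblast markers summed to 32.3 to 40.0 and 14.7 to 20.4 CPM, nearly all from COL1A1, which fell 2.22-fold, with DCN and LUM near 0. PDGFRB, the other fibroblast marker tested, rose 3.79-fold from 6, 2 and 3 counts to 17, 19 and 16. It passed the filter on low counts only through its siRPS19 libraries. The part of these differences in the results on Eph and ephrin genes was not tested.

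After RPS19 siRNA, the mRNAs of EPHA4, EPHB3, EFNB1 and EPHB4 rose by more than 2-fold, those of EPHA2, EPHB2 and EFNA5 rose by less, and EFNB2 fell. EPHA1 and EFNA1 did not pass the test. All 10 genes passed the filter on low counts, EPHB3 only through its siRPS19 libraries. A gene that low in siOTP could enter the test only when higher in siRPS19, so its call was partly fixed by the filter. Of the 10, 7 were higher and 1 lower (edgeR quasi-likelihood test, adjusted p under 0.05). Over all 17171 genes tested 39.5% were higher, 38.9% lower and 78.3% called in either direction, so the share of the 10 genes that was called is near the background. All 3 siRPS19 libraries lay above all siOTP libraries for 7 genes and below them for 1, against 40.1% and 39.6% of all genes tested (79.7% together). The median log2 fold change was 0.31 over the 10 genes, EPHB3 included, and 0.02 over all genes. The 10 genes were chosen with earlier results of these data known, and the difference between the medians was not tested. In bulk RNA, a change in how many cells express a gene and a change in RNA per cell cannot be told apart.

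**Figure D1:**
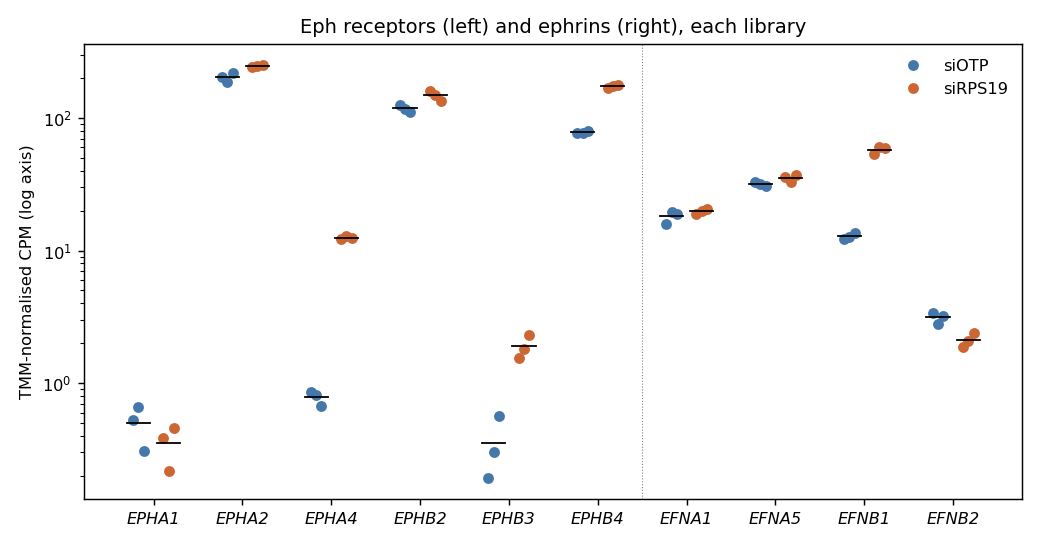
TMM-normalised CPM (log axis) of the 6 receptor and 4 ephrin genes, with each point a library and each bar the mean of 3 libraries. EPHA4, EPHB3, EPHB4 and EFNB1 stand clearly higher in siRPS19, and the points of EPHA1 and EFNA1 overlap between the groups.

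EPHA2, the most abundant of the receptor mRNAs in these cells, encodes a receptor of A-class ephrins that is widespread in epithelial and tumour cells. EPHA2 (ENSG00000142627, chromosome 1, 16450832 to 16482582, hg19) measured 204, 186 and 217 CPM in the siOTP libraries and 242, 247 and 252 CPM in the siRPS19 libraries. Every siRPS19 library lay above every siOTP library, but the step was small. The rise was 1.22-fold (log2 fold change 0.29 ± 0.05 SE, edgeR adjusted p = 1.39e-05, n = 3 each). A short part of the gene overlaps an antisense transcript that held at most 7.00 counts on average in either group.

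EPHB2, a receptor of B-class ephrins known from intestinal crypts and axon guidance, was the next most abundant in siOTP. EPHB2 (ENSG00000133216, chromosome 1, 23037332 to 23241818, hg19) held 125, 118 and 111 CPM in siOTP and 161, 150 and 135 CPM in siRPS19. The groups did not overlap, and the siRPS19 libraries spread more widely. The gene rose 1.26-fold (log2 fold change 0.33 ± 0.06 SE, edgeR adjusted p = 0.000158, n = 3 each).

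EPHB4, best known as the venous endothelial partner of ephrin-B2, rose more steeply. EPHB4 (ENSG00000196411, chromosome 7, 100400187 to 100425121, hg19) measured 77.6, 76.5 and 79.6 CPM in siOTP and 167, 174 and 178 CPM in siRPS19. The libraries of a group lay close together and the groups far apart. The rise was 2.22-fold (log2 fold change 1.15 ± 0.04 SE, edgeR adjusted p = 5.12e-16, n = 3 each), and 15.6% of all genes tested had a larger log2 fold change. Its 5′ end overlaps 680 bases of SLC12A9, a transporter-related gene on the other strand, whose mean count was 575 in siOTP and 1212 in siRPS19. The library kit is not stated to mark strand, and the part of SLC12A9 reads in the EPHB4 count was not tested.

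EPHA4, a receptor that binds ephrins of both classes, showed the largest change of the 10. EPHA4 (ENSG00000116106, chromosome 2, 222282747 to 222438922, hg19) had 18, 16 and 13 counts in siOTP and 320, 297 and 298 counts in siRPS19. In CPM these were 0.863, 0.810 and 0.670 against 12.3, 12.9 and 12.3, so a barely detected mRNA became a readily counted one in all 3 siRPS19 libraries. The rise was 15.9-fold (log2 fold change 3.99 ± 0.15 SE, edgeR adjusted p = 1.21e-15, n = 3 each), and 1.24% of all genes tested had a larger log2 fold change. The annotated genes that EPHA4 overlaps held no count.

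EPHB3, a B-class receptor that acts beside EPHB2 in the intestine, rose from a few reads. EPHB3 (ENSG00000182580, chromosome 3, 184279572 to 184300197, hg19) had 4, 6 and 11 counts in siOTP and 40, 42 and 56 counts in siRPS19. The groups were apart, and the small siOTP counts spread widely among themselves. The rise was 5.32-fold (log2 fold change 2.41 ± 0.32 SE, edgeR adjusted p = 9.11e-07, n = 3 each), and its SE is the widest among the members that were called. The annotation places EPHB3 inside EIF2B5 on the same strand, with mean counts of 1172 in siOTP and 1078 in siRPS19 for EIF2B5.

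EPHA1, the founding member of the receptor family, stayed near the detection limit. EPHA1 (ENSG00000146904, chromosome 7, 143087382 to 143105985, hg19) had 11, 13 and 6 counts in siOTP and 10, 5 and 11 counts in siRPS19. The groups overlapped, and a log2 fold change of -0.49 ± 0.39 SE did not pass (edgeR adjusted p = 0.261, n = 3 each), so a difference was not detectable at this depth. Its ends overlap ZYX and EPHA1-AS1 on the other strand, and ZYX held 3431 and 2650 counts on average in siOTP and siRPS19.

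Among the ligands, EFNB1 changed most. It encodes ephrin-B1, a membrane-spanning ligand of EphB receptors. EFNB1 (ENSG00000090776, chromosome X, 68048840 to 68061990, hg19) measured 12.3, 12.8 and 13.5 CPM in siOTP and 53.9, 60.5 and 58.9 CPM in siRPS19. Each siRPS19 library was far above the siOTP libraries. The rise was 4.49-fold (log2 fold change 2.17 ± 0.07 SE, edgeR adjusted p = 3.17e-17, n = 3 each), and 6.02% of all genes tested had a larger log2 fold change.

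EFNB2, which encodes ephrin-B2, the arterial ligand of EphB4, moved the other way. EFNB2 (ENSG00000125266, chromosome 13, 107142079 to 107187462, hg19) measured 3.41, 2.79 and 3.20 CPM in siOTP and 1.88, 2.08 and 2.40 CPM in siRPS19. Every siRPS19 library was below every siOTP library. It fell 1.48-fold (log2 fold change -0.56 ± 0.17 SE, edgeR adjusted p = 0.00567, n = 3 each). Scaled to library totals, the log2 fold change was -0.28 and did not pass (edgeR adjusted p = 0.146).

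EFNA5, a lipid-anchored ligand that also binds EphB2, rose slightly. EFNA5 (ENSG00000184349, chromosome 5, 106712590 to 107006596, hg19) measured 32.7, 31.6 and 30.5 CPM in siOTP and 35.9, 32.9 and 37.3 CPM in siRPS19. The groups touched closely without overlapping, at a 1.12-fold rise (log2 fold change 0.16 ± 0.06 SE, edgeR adjusted p = 0.0171, n = 3 each). The call was lost without siOTP replicate 2 (edgeR adjusted p = 0.0575), without siOTP replicate 3 (0.0937) and without siRPS19 replicate 3 (0.0727).

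EFNA1, the main known ligand of EphA2, did not pass. EFNA1 (ENSG00000169242, chromosome 1, 155099936 to 155107333, hg19) measured 16.0, 19.7 and 18.8 CPM in siOTP and 18.9, 19.9 and 20.6 CPM in siRPS19. The groups overlapped, with a log2 fold change of 0.12 ± 0.08 SE (edgeR adjusted p = 0.153, n = 3 each). With upper-quartile factors it was 0.30 (edgeR adjusted p = 0.00165) and with library totals 0.41 (5.94e-05), both past the threshold. No annotated gene overlaps any of the 4 ephrin genes.

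The promoters of EFNB1, EFNB2 and EPHB4 are shown because they belong to the ligand that rose most, the ligand that fell and the receptor known to pair with it, a choice made after their values were seen. Each is the sequence before the RefSeq start (build GRCh38.p14), 5′ to 3′ on the gene's strand, without bases in an annotated exon. Capitals mark GGGCGG on either strand and TATAAA on either strand.
EFNB1 (chrX:68828771-68828996, plus strand): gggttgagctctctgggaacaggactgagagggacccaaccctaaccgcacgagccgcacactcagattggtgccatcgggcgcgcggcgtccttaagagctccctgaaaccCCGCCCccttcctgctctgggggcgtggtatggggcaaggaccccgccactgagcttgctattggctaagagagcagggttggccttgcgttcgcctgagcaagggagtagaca
EFNB2 (chr13:106535663-106535912, minus strand): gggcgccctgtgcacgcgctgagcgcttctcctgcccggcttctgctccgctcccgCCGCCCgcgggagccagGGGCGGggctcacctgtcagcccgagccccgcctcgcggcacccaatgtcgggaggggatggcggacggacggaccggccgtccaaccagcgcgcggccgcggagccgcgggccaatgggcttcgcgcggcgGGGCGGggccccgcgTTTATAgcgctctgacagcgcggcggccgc
EPHB4 (chr7:100827524-100827773, minus strand): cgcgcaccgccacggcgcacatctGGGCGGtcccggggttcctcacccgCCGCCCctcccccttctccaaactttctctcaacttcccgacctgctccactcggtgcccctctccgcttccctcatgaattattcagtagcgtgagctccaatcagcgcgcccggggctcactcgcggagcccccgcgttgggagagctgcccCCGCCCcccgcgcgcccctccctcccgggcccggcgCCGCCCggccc
The stretch at EFNB1 is 226 bases long with 62.8% G or C and 1 GGGCGG match. EFNB2 has 78.4% G or C with 3 GGGCGG matches and 1 TATAAA match, and EPHB4 has 72.8% G or C with 4 GGGCGG matches.

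All 10 genes matched the RefSeq promoter table, with 12 starts in all. Of the 250 bases before these starts, 12 of 12 windows, and so 10 of 10 genes, held GGGCGG on either strand, against 42.6% of 35116 promoter windows of the same length. The windows of the EPHB2 starts are nearly the same sequence, so they are not separate counts. The members' windows had 43.2% to 84.8% G or C, against a median of 58.0% over all. TATAAA was found in 1 of 12 windows, at EFNB2, against 10.7% of all. TTTGAA, the letters of the cell cycle homology region, and the decamer of the p53 consensus were found in none of the 12, against 13.3% and 5.57% of all. These counts describe letters in short windows only.

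Per kilobase of transcript, the order of the mRNA levels among the 6 receptor members differed between the groups; the other family genes are left out of it. In siOTP, EPHA2 stood at 48.6 ± 3.72 CPM per kilobase, EPHB2 at 18.6 ± 1.06 and EPHB4 at 12.2 ± 0.244 (SD, n = 3 each), without overlap. The levels of EPHA1, EPHA4 and EPHB3 lay at 0.105, 0.103 and 0.0782 CPM per kilobase and overlapped. In siRPS19, EPHA2 remained first at 59.5 ± 1.24 CPM per kilobase, and EPHB4 at 27.0 ± 0.900 stood above EPHB2 at 23.5 ± 2.02 (SD, n = 3 each). EPHA4 at 1.66, EPHB3 at 0.418 and EPHA1 at 0.0744 CPM per kilobase followed, and no neighbours among these 6 overlapped in siRPS19.

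The 4 ephrin members changed places as well. In siOTP the levels per kilobase were 7.15 ± 0.760 for EFNA1, 5.54 ± 0.192 for EFNA5, 3.88 ± 0.181 for EFNB1 and 0.702 ± 0.0707 for EFNB2 (CPM per kilobase, SD, n = 3 each), without overlap. In siRPS19 EFNB1 came first at 17.4 ± 1.04, before EFNA1 at 7.79 ± 0.332, EFNA5 at 6.20 ± 0.398 and EFNB2 at 0.476 ± 0.0583, again without overlap among these 4. The order of EFNA1 and EFNA5 depends on the transcript lengths used. In mean CPM without length, EFNA5 stood above EFNA1, at 31.6 against 18.1 in siOTP and 35.4 against 19.8 in siRPS19. EFNA4, at 3.44 ± 0.480 and 4.12 ± 0.524 CPM per kilobase in siOTP and siRPS19 (SD, n = 3 each), overlapped EFNB1 in siOTP. In the authors' deposited table, EFNB1 is listed at 3.51 and 19.12 RPKM in siOTP and siRPS19, and EPHA2 at 43.85 and 65.32 RPKM. Those values are scaled to group totals and so move by more than the TMM-scaled CPM.

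Shares within the family do not depend on how libraries are scaled, but they do depend on the transcript lengths used. They were taken of the summed CPM per kilobase of all 14 receptor genes or all 8 ephrin genes. EFNB1 took 16.4%, 16.5% and 16.99% of ephrin mRNA in siOTP and 41.99%, 44.6% and 42.9% in siRPS19. EFNA1 took 27.7%, 33.1% and 30.9% against 19.2%, 19.1% and 19.5%, and EFNA5 25.3%, 23.7% and 22.3% against 16.3%, 14.1% and 15.8%. EFNB1 thus went from a smaller share than EFNA1 or EFNA5 to a larger one in each siRPS19 library.

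Among the receptors, EPHB4 took 14.6%, 15.5% and 14.8% in siOTP and 22.9%, 23.7% and 24.4% in siRPS19. EPHA2 took 59.2%, 58.0% and 62.1% against 51.2%, 51.9% and 53.2%. The share of EPHA2 was thus lower in siRPS19 although its own CPM was higher. EPHB2 took 22.9% ± 1.76 and 20.6% ± 1.80 (SD, n = 3 each), which overlapped. B-class genes together made up 38.1% ± 1.96 of receptor mRNA in siOTP and 45.1% ± 0.933 in siRPS19, and 23.0% ± 0.401 and 50.2% ± 1.80 of ephrin mRNA (SD, n = 3 each; not tested). The class did not move as one. EPHB4 and EFNB1 gained most, whereas the EPHB2 share was lower on average and the EFNB2 share went from 3.01% to 1.18%.

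**Figure D2:**
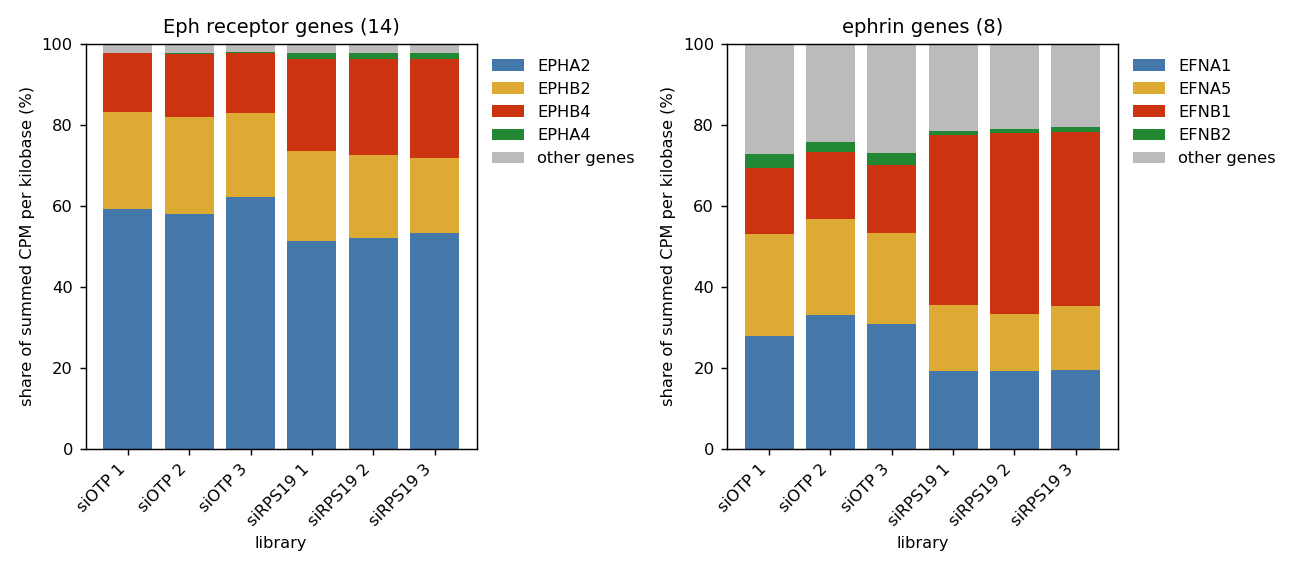
Share (%) of the summed CPM per kilobase of the 14 Eph receptor genes (left) and the 8 ephrin genes (right) in each library, as stacked bars. The EFNB1 share is 16.4% to 16.99% in siOTP and 41.99% to 44.6% in siRPS19, and the EPHB4 share 14.6% to 15.5% and 22.9% to 24.4%.

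Of 3 known receptor and ligand pairs, EPHB4 with EFNB2 and EPHB2 with EFNB1 shifted in opposite directions. These directions depend on which partners are set together. EPHB2 rose (log2 fold change 0.33) while EFNB2 fell (-0.56), and EPHB4 rose less than EFNB1 (1.15 against 2.17). The ratios of EPHB2 to EFNB2 and of EPHB4 to EFNB1 were not tested. The log2 ratio of EPHB4 to EFNB2 counts was 4.50, 4.77 and 4.63 in siOTP and 6.45, 6.37 and 6.20 in siRPS19, a difference of 1.71 toward the receptor. The log2 ratio of EPHB2 to EFNB1 was 3.34, 3.20 and 3.04 in siOTP and 1.58, 1.31 and 1.20 in siRPS19, a difference of -1.83, toward the ligand. The log2 ratio of EPHA2 to EFNA1 was 3.48 ± 0.22 and 3.64 ± 0.03 (SD, n = 3 each), and its groups overlapped (exact two-sided permutation p = 0.3). Over these 3 ratios and the 10 members' shares, 13 measures in all, 10 had groups apart. Each of these 10 gave an exact permutation p of 0.1 (Benjamini-Hochberg adjusted 0.13). That is the smallest that 3 unpaired libraries against 3 allow, so none can pass a threshold of 0.05. The permutation exchanged libraries freely and did not keep their pairing by replicate number.

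Summed over the family, receptor mRNA was 81.2 ± 3.63 CPM per kilobase in siOTP and 114 ± 0.394 in siRPS19, and ephrin mRNA 23.4 ± 0.666 and 40.3 ± 1.46 (SD, n = 3 each; not tested). Within the ephrin sum, EFNB1 went from 3.88 to 17.4 CPM per kilobase, the largest difference of any ephrin gene. The log2 ratio of the summed receptors to the summed ephrins was 1.80 ± 0.07 and 1.5 ± 0.05 (SD, n = 3 each), lower in all 3 siRPS19 libraries.

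Of the other 12 family genes, 9 were tested, 5 rose and 2 fell, with a median log2 fold change of 0.38. The share called is near the 78.3% of all genes tested. Of all genes tested, 39.5% were higher and 38.9% lower, with a median of 0.02. EFNB3, the remaining B-class ephrin, measured 2.58 ± 0.490 CPM in siOTP and 7.63 ± 1.34 CPM in siRPS19 (SD, n = 3 each), a 2.97-fold rise. EPHB6, whose kinase domain lacks catalytic activity, rose 6.76-fold, from 3, 9 and 6 counts to 49, 42 and 60. EPHB1 rose 8.22-fold, from 8, 1 and 3 counts to 36, 51 and 36. It overlaps KY on the other strand, with 2.00 and 24.3 counts on average. Like EPHB3, EPHB6 and EPHB1 passed the filter on low counts only through their siRPS19 libraries. Their calls, among the 5 that rose, and their part in the median were thus partly fixed by the filter. Without siOTP replicate 1 the log2 fold change of EPHB1 was 3.95, against 3.04 with all libraries. EPHA7 fell 2.91-fold, from 58, 48 and 57 counts to 23, 25 and 20.

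The following were named after their values were seen. EPHA10 and EFNA2 rose 1.30-fold and 1.42-fold, and EFNA3 fell 2.37-fold. EPHA5 and EFNA4, at log2 fold changes of 0.01 and 0.26, did not pass. EFNA2 overlaps MUM1 and EFNA3 overlaps EFNA4, each on the same strand. EPHA3, EPHA6 and EPHA8 fell under the filter, and EPHA8 had no count in any library. With library totals, 7 of the other family genes rose and 2 fell, where 65.8% of all genes called were higher.

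**Figure D3:**
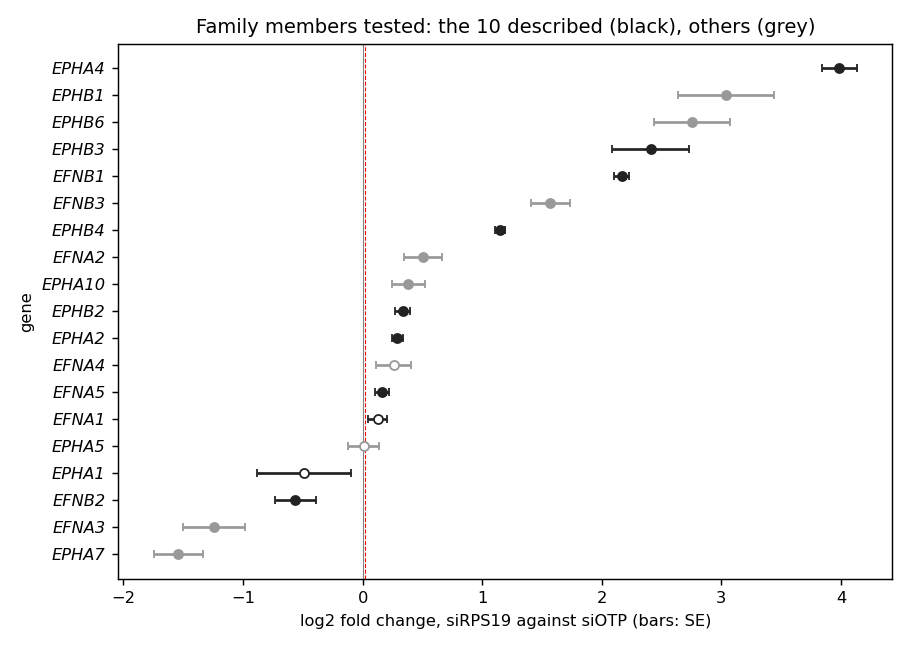
Log2 fold change (siRPS19 against siOTP, bars SE) of the 19 family genes tested, with the 10 members in black and the others in grey. Filled points passed the test, and the dashed line is the median of all genes tested, 0.02; EPHA4 stands highest at 3.99 and EPHA7 lowest at -1.54.

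Of 64 tested genes in 6 lists of Eph and ephrin signalling, 24 rose and 27 fell, with a median log2 fold change of 0.05. Both shares are near those of all genes tested, 39.5% higher and 38.9% lower. With library totals, 36 rose and 18 fell. Under that scaling 9114 of all 17171 genes tested rose and 4734 fell, so 65.8% of those called were higher. Of these lists, 4 are described here. Over all genes tested 78.3% were called in either direction, and the count called in a list was not tested against that share.

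Of 18 adaptors and phosphatases that bind Eph receptors, 8 rose and 9 fell, with a median of -0.12. PIK3R1, a regulatory subunit of PI3-kinase, rose 2.08-fold. The ubiquitin ligase gene CBL fell 1.69-fold, the adaptor gene CRK fell 1.41-fold, and its relative CRKL had a log2 fold change of -0.58. With library totals, 9 rose and 4 fell. Of 6 Src and Abl kinases, 2 rose and 2 fell, with a median of 0.02: FYN rose 2.13-fold and YES1 1.23-fold, and ABL1 fell 2.11-fold and SRC 1.24-fold. With library totals, SRC did not pass (log2 fold change -0.02, edgeR adjusted p = 0.724), and 4 rose and 1 fell. For both lists, 65.8% of all genes called with library totals were higher.

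Of 8 genes for proteases that cleave Ephs or ephrins, 5 rose and 2 fell, with a median of 0.22. Over all genes tested 39.5% were higher and 38.9% lower, and with so few genes the list cannot be set apart from those shares. The ectodomain sheddases ADAM17 and ADAM10 rose 1.52-fold and 1.23-fold, and the gamma-secretase gene NCSTN 1.38-fold. PSEN2, higher, and APH1A and PSENEN, lower, were named after their values were seen, and with library totals or upper-quartile factors none of this list fell. The count of 2 lower became 1 when genes under a mean of 1 CPM were left out, 1 without siOTP replicate 1 and without siRPS19 replicate 3, and 0 without siRPS19 replicate 1. Of 9 tested genes of ephrin-B reverse signalling, 4 rose and 3 fell, with a median of 0.09. STAT3, a transcription factor, rose 2.17-fold, GIT1 2.13-fold and the PDZ protein gene GRIP1 1.61-fold, and RGS3, which links ephrin-B to G proteins, fell 2.67-fold. PICK1, higher, and SDCBP and PARD6A, lower, were named after their values were seen, and with library totals 7 rose and 2 fell. Among all genes called with library totals, 65.8% were higher.

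**Figure D4:**
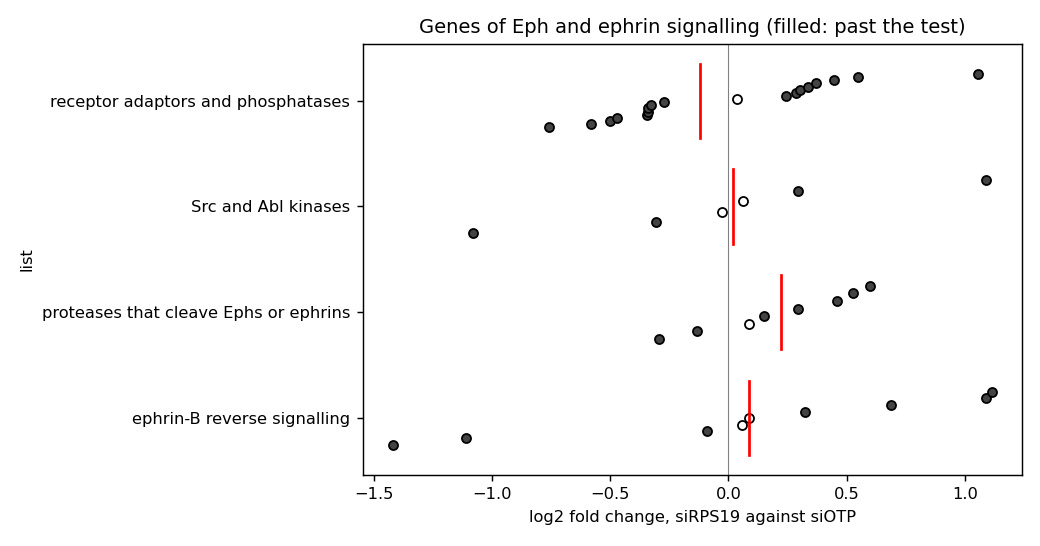
Log2 fold change (siRPS19 against siOTP) of each tested gene in 4 signalling lists, with filled points past the test and a red bar at each list's median. The medians lie between -0.12 and 0.22, and each list holds genes on both sides of 0.

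Over the 6 libraries, the genes nearest in pattern to EPHA2 were MVB12A, SIPA1L3 and IDH3G, with root mean square differences of 0.0203, 0.0272 and 0.0275 on the centred log2 scale. Those nearest to EFNB1, the ephrin with the highest mean RPKM, were PHLDA3, FAM198B and GAMT, at 0.0264, 0.0265 and 0.0360. They were taken from 11478 genes with a mean of at least 5 CPM over the 6 libraries, and 0.5 CPM was added before the log. With 6 libraries in 2 groups the measure mostly reflects a like fold change after that addition. FAM198B, at 1.60 CPM in siOTP and 8.63 in siRPS19, had a log2 fold change of 2.43, against 2.17 for EFNB1.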

How the data were processed

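Reads were aligned with TopHat2 (2.0.8b) to hg19 and counted with HTSeq, per the submitters' processing notes, which also name DESeq and R (3.0.2). For the counting mode and the annotation, nothing is stated in the labels. The authors deposited raw counts per Ensembl gene for each library and RPKM per group. Tested on the table, their RPKM equalled the mean count plus 1, divided by gene length and the group's total, for 100% of 62729 genes within 0.006 RPKM. The 6 columns of 2 joined count tables do not name a library and were not used. Entries that name no gene (no feature, 3.39% to 6.36%, and ambiguous, 7.50% to 8.24%) were left out.

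Genes were filtered with filterByExpr (minimum count 10, total 15) and scaled with TMM, then compared with edgeR 4.0.16 (robust glmQLFit, glmQLFTest; R 4.3.3), and p-values were adjusted by Benjamini-Hochberg over the 17171 genes tested. Each SE is the log2 fold change divided by the square root of F. Log2 ratios within a library used counts plus 0.5 in place of the planned TMM-scaled CPM, since a library's scaling cancels in them. Summed family levels were added later and not tested. A simulation of the siRPS19 and siOTP libraries (15926 genes) used siOTP means and a common dispersion for all genes. Only genes above 1 CPM in siOTP were set to change. The test recovered 88.1% of 67 set to change 1.5-fold, 94.0% of 67 at 2-fold and 100% of 66 at 4-fold, with 5 false calls. Far fewer genes changed there than the 78.3% called in the data. EPHA1, EPHA4 and EPHB3 lay under 1 CPM in siOTP. The rates therefore do not carry over to this comparison or to those genes.

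The members and lists were chosen with earlier results of these data known. Named are all members, RPS19, up to 4 called genes per list, taken by smallest p, and the 3 genes nearest in pattern to EPHA2 and to the ephrin with the highest mean RPKM. Replicates of a group differed beyond sampling noise (chi-square per degree of freedom 4.40 to 16.6). A date in the sample descriptions is common to libraries of the same number, so they pair across the groups, and the deviations of same-numbered libraries correlated across genes at 0.09, -0.12 and 0.07. Alternatives were other scalings and filters, DESeq2 1.42.0, limma-voom (limma 3.58.1), the replicate block and leaving out each library. A few genes and 2 signalling lists are not reported here.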

Additional observations from a re-analysis of the deposited data

How the results depend on the processing

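The counts of members called were 7 higher and 1 lower. With library totals, which shifted the median of all genes by 0.29 on the log2 scale, they were 8 higher and 0 lower, because EFNA1 passed and EFNB2 (log2 fold change -0.28) did not. Upper-quartile factors shifted that median by 0.17 and gave 8 and 1. Over all genes the split of 6778 higher and 6673 lower (50.4% higher) became 9114 and 4734 (65.8%) with library totals and 8187 and 5505 (59.8%) with upper-quartile factors. Without a filter, EFNA5 did not pass (log2 fold change 0.11, edgeR adjusted p = 0.138), which left 6 higher. DESeq2 gave 7 and 1, with EFNA5 at an adjusted p of 0.0499. With the replicate block, 7 members were higher and 1 lower and 24 and 27 signalling genes, so the pairing changed none of these counts. Leaving out each library in turn gave 6 to 7 members higher and 1 lower, and 23 to 25 signalling genes higher and 25 to 28 lower. No member changed direction under any alternative run. EPHA1 had no value with the filter at a mean CPM of 1, which it did not reach. The few counts on EPHA1, EPHB3 and EPHB1 limit what can be said of their size of change.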
